A study of Mus musculus with 6 samples.

Results

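Guanylate-binding proteins (GBPs) and immunity-related GTPases (IRGs) are the large interferon-inducible GTPases of the mouse, and 8 of their genes were named for this account: Gbp2b, Gbp2, Gbp3 and Gbp7 of the first family and Igtp, Iigp1, Irgm1 and Irgm2 of the second. They were taken by symbol from a deposited expression table of 12134 genes, in which 6 of the 8 are listed. Gbp3 and Iigp1 are not among its rows, and no value is given for them. The genes were proposed with the difference between the groups already known, so that difference is described here and not tested as evidence.

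RNA was sequenced from AB22 cells, a mouse malignant mesothelioma line, that carried the doxycycline-inducible vector pTRIPZ expressing either an shRNA that serves as the control (shCTRL) or one that targets Hmgb1 (shHMGB1). Both groups had been infected at a multiplicity of infection of 20, selected in puromycin at 4 µg/mL, grown in 5% oxygen, given doxycycline at 1 µM for 7 to 10 days and synchronized in G1, and no irradiation dose is given for these samples. Each group has 3 replicates, lettered A, B and C and given below in that order, and 1 construct is named per group. The labels do not say whether replicates were separate infections, so p-values measure only the spread between these samples, which may be technical.

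Interferon-gamma acts through its receptor and the kinases JAK1 and JAK2 on genes with GAS elements, and IRF factors bind ISRE elements. Among the products, effector GTPases coat the membranes of vacuoles that hold parasites or bacteria, and the autophagy conjugation system directs them there. The IRGM proteins, encoded by Irgm1, Irgm2 and Igtp, are regulators that stay on the cell's own membranes and keep effector IRGs such as the products of Iigp1, Ifi47 and Tgtp2 inactive there. In mouse cells these genes are strongly induced by interferon, and cells without added interferon usually hold low levels.

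The listed genes lie on 2 chromosomes of GRCm38, as placed by GENCODE M21, and on chromosome 11 Irgm1 lies far from Igtp and Irgm2. Gbp7 (142530342 to 142550149), Gbp2b (142594847 to 142619179) and Gbp2 (142620602 to 142638008) follow one another on the plus strand of chromosome 3. Irgm1 (48861968 to 48871683, minus strand), Igtp (58199556 to 58207591, plus strand) and Irgm2 (58199618 to 58222782, plus strand) lie on chromosome 11. All are protein-coding. The annotated exons of Igtp and Irgm2 share 162 bases, which is 8.01% of the Igtp exons and 4.39% of the Irgm2 exons, so reads there cannot be assigned to 1 of them.

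Promoters of all 6 listed genes were found in the RefSeq table (GRCm38.p6), each covering 250 bases before to 50 bases after the transcript start. The windows of 4 of them are shown because Gbp2b and Gbp2 had the largest differences between the groups, and Igtp and Irgm2 are a pair with like promoters whose libraries overlapped. They read 5′ to 3′ on the gene's strand, with capitals on every match to the ISRE letters (GAAA, any 2 bases, GAAA), on either strand, or to the GAS letters (TTC, any 3 bases, GAA), which read alike on both strands.
Gbp2b, chr3:142594597-142594896, plus strand: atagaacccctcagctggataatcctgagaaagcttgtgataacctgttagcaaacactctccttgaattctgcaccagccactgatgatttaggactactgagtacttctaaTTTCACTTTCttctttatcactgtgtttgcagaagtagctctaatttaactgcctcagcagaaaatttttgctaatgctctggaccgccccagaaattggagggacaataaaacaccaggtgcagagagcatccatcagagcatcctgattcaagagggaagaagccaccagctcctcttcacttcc
Gbp2, chr3:142620413-142620712, plus strand: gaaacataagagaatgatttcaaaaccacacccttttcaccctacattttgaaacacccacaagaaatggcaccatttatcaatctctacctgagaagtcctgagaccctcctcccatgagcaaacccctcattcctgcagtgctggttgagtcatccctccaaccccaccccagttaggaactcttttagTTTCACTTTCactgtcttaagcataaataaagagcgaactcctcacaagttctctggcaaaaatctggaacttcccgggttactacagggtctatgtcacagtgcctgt
Igtp, chr11:58199306-58199605, plus strand: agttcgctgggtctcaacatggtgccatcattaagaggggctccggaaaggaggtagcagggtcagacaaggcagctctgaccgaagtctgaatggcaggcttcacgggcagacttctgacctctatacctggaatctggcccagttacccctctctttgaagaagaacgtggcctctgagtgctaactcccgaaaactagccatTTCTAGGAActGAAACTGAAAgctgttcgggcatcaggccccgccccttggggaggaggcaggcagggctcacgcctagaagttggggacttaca
Irgm2, chr11:58214727-58215026, plus strand: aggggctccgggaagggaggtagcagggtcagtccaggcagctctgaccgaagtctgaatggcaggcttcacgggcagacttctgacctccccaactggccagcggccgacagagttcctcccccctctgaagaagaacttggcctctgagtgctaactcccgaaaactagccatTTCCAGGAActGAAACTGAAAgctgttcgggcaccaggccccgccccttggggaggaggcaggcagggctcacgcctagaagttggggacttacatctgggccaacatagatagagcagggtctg

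All 6 listed genes had an ISRE match, and 3 of them, Gbp7, Igtp and Irgm2, also had a GAS match. Of 32851 RefSeq promoter windows of the same length, 3.44% held an ISRE match, 8.3% a GAS match and 0.454% both. The match in Gbp2b starts at position -137 and that in Gbp2 at -59, counted from the transcript start, and both have the letters TTTCACTTTC. No GAS match was found in those 2 windows. In Igtp and Irgm2 a GAS match at -45 and -75 is followed by an ISRE match, GAAACTGAAA, at -34 and -64. Set against each other with a shift of 30 bases, the Igtp and Irgm2 windows were identical at 184 of 270 bases, or 68.1%, against 32.9% at best for Gbp2b and Gbp2. Irgm1 had 2 ISRE matches, at -30 and -24, which overlap each other. Gbp7 had 2 GAS matches, at -106 and -87, and an ISRE match at -53. Outside the 6, the listed genes Tgtp2 (GAS at -81, ISRE at -70) and Gm12185 (-86 and -75) have the same order of matches. The windows of the listed genes Ifi47, 9930111J21Rik2 and Irgq held neither match, and that of 9930111J21Rik1 only an ISRE match, at 27 after the start. For Gbp4, Gbp8 and Gbp9 no window was available, so they were not searched. Tgtp2 was lower in shHMGB1 without overlap of the groups, as for 7.07% of all tested genes, with a log2 fold change of -0.86. Gm12185 was too low to be tested. Whether the layout of matches goes with the differences was not tested. A match is a description of the letters, and binding was not measured.

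**Figure D1:**
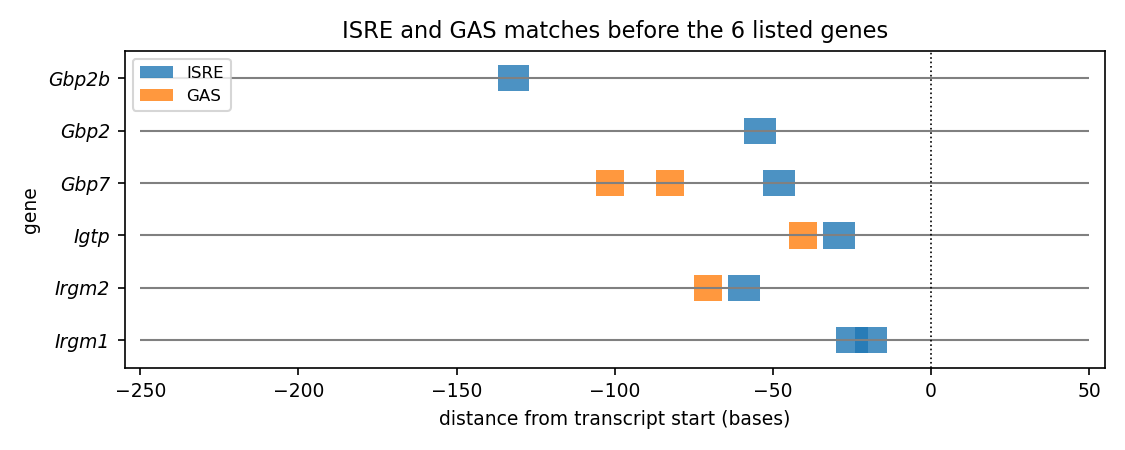
Matches to ISRE (blue) and GAS (orange) letters in the windows of the 6 listed genes, by distance in bases from the transcript start (dotted line at 0). The single ISRE match of Gbp2b lies at -137 and that of Gbp2 at -59. Igtp and Irgm2 have a GAS match just before an ISRE match.

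The 6 libraries held 12869533 to 23429362 reads over the listed genes. Hmgb1 checked the labels. It fell from a control level of 36.9 ± 7.43 RPKM (reads scaled to gene length and library size) to 5.59 ± 1.70 RPKM with the knockdown (SD, n = 3 each), with a log2 fold change of -2.73 ± 0.26 (SE) and an adjusted p of 0.0269 in limma over all genes. It was 1 of 3 genes past the threshold among 11669 tested, a background of 0.0257%. Its adjusted p was under 0.05 in 13 of 18 alternatives. It was 0.0546 among genes averaging at least 5 RPKM, 0.137, 0.248 and 0.115 when control library A, B or C was left out, and 0.197 when knockdown library B was. The log2 fold change then lay between -2.83 and -2.57. A pair of entries is uneven between libraries: AY036118 and the 18S-related Rn18s-rs5 together took 0.915% to 20.9% of the reads in shCTRL and 0.198% to 3.89% in shHMGB1, and their part in the results was not tested. Of 12 mesothelial markers 5 are listed, among them Msln, the mesothelin gene, at 67.2 ± 13.6 RPKM in the controls and 32.9 ± 5.66 RPKM with the knockdown (SD, n = 3 each). All 5 had negative log2 fold changes, and 0 passed. Msln was lower without overlap of the groups, as were Bnc1 and Gas1, named after their values were seen, against 7.07% of all tested genes. The summed level of the 5 was 591.8 to 667.9 RPKM in shCTRL libraries against 459.6 to 578.7 RPKM in shHMGB1 libraries. Most of it came from Efemp1, at 476 ± 40.6 and 428 ± 62.3 RPKM with overlapping groups (SD, n = 3 each). The part of the mesothelial markers in the results was not tested. Of 7 fibroblast markers 6 are listed, 5 with positive and 1 with a negative log2 fold change, a median of 0.43 and 0 passed. Their summed level was 894.1 to 1565 RPKM in shCTRL libraries and 1085 to 2411 RPKM in shHMGB1 libraries. The matrix genes Dcn and Lum, named after their values were seen, were higher without overlap of the groups, as for 6.9% of all tested genes. They measured 3.71 ± 1.35 and 0.526 ± 0.190 RPKM in the controls and 9.90 ± 2.53 and 3.11 ± 1.01 RPKM with the knockdown (SD, n = 3 each). Groups overlapped for Pdgfra, Pdgfrb, Col1a1 and Col1a2, with log2 fold changes of -0.59, 0.22, 0.62 and 0.24. The part of these markers in the results was not tested. Of 15 immune cell markers only Lyz2 is listed, at 1.97 to 2.56 RPKM in the controls and 2.31 to 2.71 RPKM with the knockdown, and the pan-leukocyte marker Ptprc is not.

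All 6 listed genes had lower mean levels in shHMGB1, by very different amounts, where 48.3% of all tested genes had a log2 fold change below 0 and 51.7% above. Gbp2b stood at 21.9% of its control level and Gbp2 at 48.9%, Gbp7 at 69.2% and Igtp at 77.7%, and Irgm1 and Irgm2 at 86.0% and 87.5%. In Gbp2b and Gbp2 the libraries of the groups did not overlap, which was so toward lower values for 7.07% of all tested genes, and in the other 4 they did. Since these genes were chosen with the difference known, nothing is read from these shares. In limma over all genes 0 of the 6 passed an adjusted p of 0.05, 2 had an unadjusted p under 0.05 (Gbp2b and Gbp2), against 7.91% of all tested genes, 4.13% lower and 3.78% higher, and limma's voom on reads recovered from the table gave the same counts, 0 and 2. Bulk RNA cannot tell fewer expressing cells from less RNA per cell.

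Gbp2b encodes the protein that the literature on mice calls GBP1. Its level was 8.62, 12.5 and 14.1 RPKM in the control libraries, from 333, 383 and 1020 reads. It was 3.14, 2.62 and 1.96 RPKM in the knockdown libraries, from 173, 163 and 82 reads. The lowest control library thus lay above the highest shHMGB1 library by a wide margin, and within the controls replicate A was the low one. The means were 11.7 ± 2.84 and 2.57 ± 0.59 RPKM (SD, n = 3 each), and on the scale of log2(RPKM + 0.1) the difference was -2.14 ± 0.25 (SE), with a 95% interval from -2.73 to -1.55. The limma adjusted p was 0.061. Of all tested genes 0.0943% had a lower log2 fold change, but Gbp2b was chosen with its difference known, so nothing is read from that share.

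Gbp2 encodes a lipid-modified GBP that gathers at parasite vacuoles in mouse cells, and it was the most abundant of the 6. Its level was 35.0, 37.8 and 30.9 RPKM in the control libraries, from 1207, 1035 and 1984 reads. It was 21.5, 15.1 and 14.1 RPKM in the knockdown libraries, from 1055, 839 and 530 reads. The groups did not overlap, and shHMGB1 replicate A was nearest to the controls. The means were 34.6 ± 3.52 and 16.9 ± 3.98 RPKM (SD, n = 3 each), with a log2 fold change of -1.05 ± 0.20 (SE; 95% interval -1.50 to -0.60). Gbp2b and Gbp2 are neighbours and paralogs, but only 1.84% of the 50-base windows of Gbp2b transcripts recur in another gene, all of them in Gbp2.

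Gbp7, whose product was linked to the assembly of the NADPH oxidase in mouse macrophages, was a low-level gene here. It measured 1.97, 1.89 and 1.40 RPKM in the control libraries and 1.49, 0.994 and 1.15 RPKM in the knockdown libraries. Replicate A of shHMGB1 lay above replicate C of shCTRL, so the groups overlapped. The log2 fold change was -0.50 ± 0.25 (SE), with a 95% interval from -1.07 to 0.07, on 96 to 200 reads per library. A processed pseudogene, Gm43802, overlaps 11.3% of the exonic bases of Gbp7.

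Among the 6 chosen genes, the 3 regulatory IRGM genes lay closest to equality. Outside the 6, Irgq, 9930111J21Rik1 and 9930111J21Rik2, given below, lay closer still. Irgm1, needed in mice for resistance to several intracellular bacteria, measured 16.6, 16.4 and 12.8 RPKM in the control libraries and 15.7, 10.8 and 12.9 RPKM in the knockdown libraries. Its groups overlapped widely, with a log2 fold change of -0.22 ± 0.19 (SE; 95% interval -0.67 to 0.23). Igtp, which encodes IRGM3, measured 5.06, 4.06 and 3.64 RPKM in the control libraries and 3.73, 3.36 and 2.83 RPKM in the knockdown libraries. Only shHMGB1 replicate A reached into the control range, and the Igtp log2 fold change of -0.35 ± 0.21 (SE) had a 95% interval from -0.83 to 0.13. Irgm2 measured 0.934, 1.37 and 1.59 RPKM in the control libraries and 1.03, 0.997 and 1.39 RPKM in the knockdown libraries, the lowest library being a control. Its log2 fold change was -0.16 ± 0.27 (SE; 95% interval -0.79 to 0.46), on 47 to 150 reads per library. For Irgm1 and Irgm2 the sign turned to 0.13 and 0.17 when libraries were rescaled to equal sums, and for Igtp the difference became -0.0018. Under that rescaling the median over all tested genes was 0.36 instead of 0.01, and relative to that median all 3 stayed lower.

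**Figure D2:**
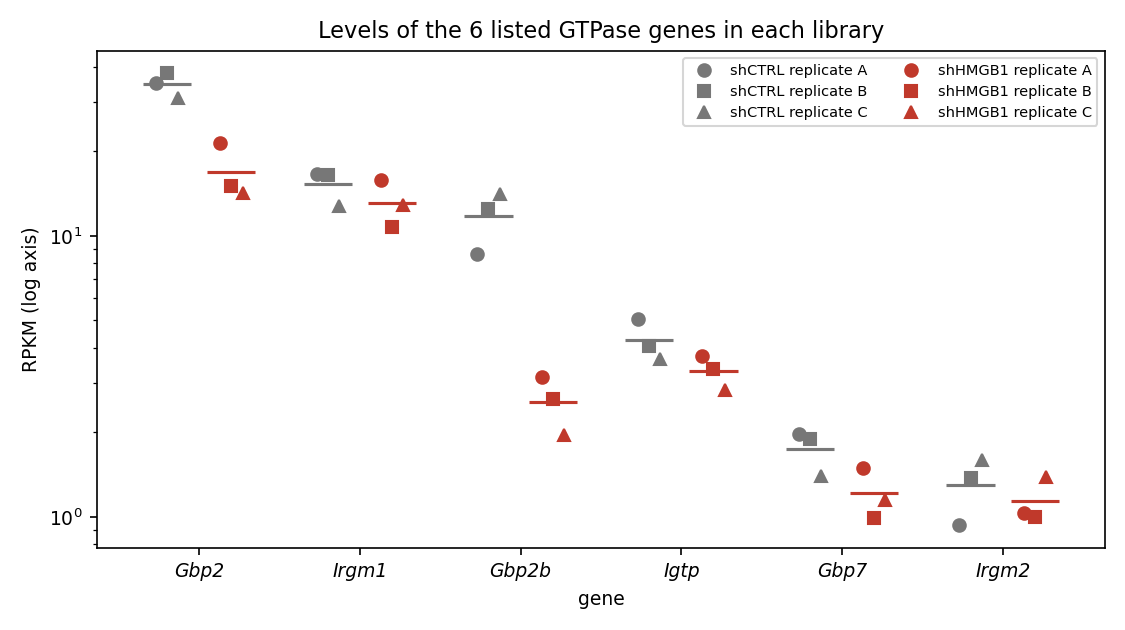
RPKM of each listed gene on a log axis, with 1 point per library (grey shCTRL, red shHMGB1; circle A, square B, triangle C) and a line at the mean of 3 libraries. The grey and red points separate for Gbp2 and Gbp2b and overlap for Irgm1, Igtp, Gbp7 and Irgm2.

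The order of the levels, which RPKM allows as far as the length used for each gene holds, differed between the groups. Irgm1 values rest on 2305 bases, against 5810 annotated, so its place depends on the gene model. In shCTRL it ran Gbp2, Irgm1, Gbp2b, Igtp, Gbp7 and Irgm2, from 34.6 ± 3.52 to 1.30 ± 0.34 RPKM (SD, n = 3). Irgm1 and Gbp2b overlapped in that order, as did Gbp7 and Irgm2, and the other neighbours did not. In shHMGB1 it ran Gbp2, Irgm1, Igtp, Gbp2b, Gbp7 and Irgm2, from 16.9 ± 3.98 to 1.14 ± 0.22 RPKM (SD, n = 3). There Gbp2 overlapped Irgm1, Igtp overlapped Gbp2b, and Gbp7 overlapped Irgm2. Gbp2b moved from the third place to the fourth, below Igtp. Summed over the 6 genes, the level was 64.4 to 74.1 RPKM in the shCTRL libraries and 33.8 to 46.6 RPKM in the shHMGB1 libraries. Gbp2 alone gave 50.1 ± 1.92% of that sum in shCTRL and 44.0 ± 2.48% in shHMGB1 (SD, n = 3 each).

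Ratios of genes within a library do not depend on the scaling between libraries. The ratio of Gbp2b to Gbp2 was 0.246 to 0.458 in shCTRL and 0.138 to 0.173 in shHMGB1, so the groups did not overlap and the paralogs differed in how far they lay below the controls. The ratio of Gbp2 to Irgm1 was 2.28 ± 0.15 in shCTRL and 1.29 ± 0.16 in shHMGB1 (SD, n = 3 each). For Gbp2b over Igtp it was 1.70 to 3.88 in shCTRL and 0.691 to 0.843 in shHMGB1. Each of these ratios was lower in all 3 shHMGB1 libraries than in all 3 controls, and each rests on the same differences that the choice of genes used.

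Within the groups the genes did not follow 1 pattern. As deviations of log2(RPKM + 0.1) from the mean over 6 libraries, Gbp2b ran 0.66, 1.19 and 1.37 in the control libraries. Igtp ran 0.43, 0.12 and -0.03 in the same libraries, the reverse order, and Irgm2 was lowest in replicate A, at -0.33. In shHMGB1, replicate A was the highest library for Gbp2b, Gbp2, Gbp7, Igtp and Irgm1, and replicate C for Irgm2. The tested genes outside the 6 whose profile came closest to their mean profile were Hexim2, Sptssa, Hist3h2a, Dnah7b and Lrp11, with root mean square differences of 0.0617 to 0.0772 on the log2 scale over 6 libraries. The 6 genes themselves lay farther from that mean, from 0.184 for Gbp2 to 0.745 for Gbp2b. The outside genes were picked as the closest of all tested genes, so their being closer was fixed in advance. These profiles span both groups and hold the difference known at the choice, so the values do not measure the pattern within groups.

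**Figure D3:**
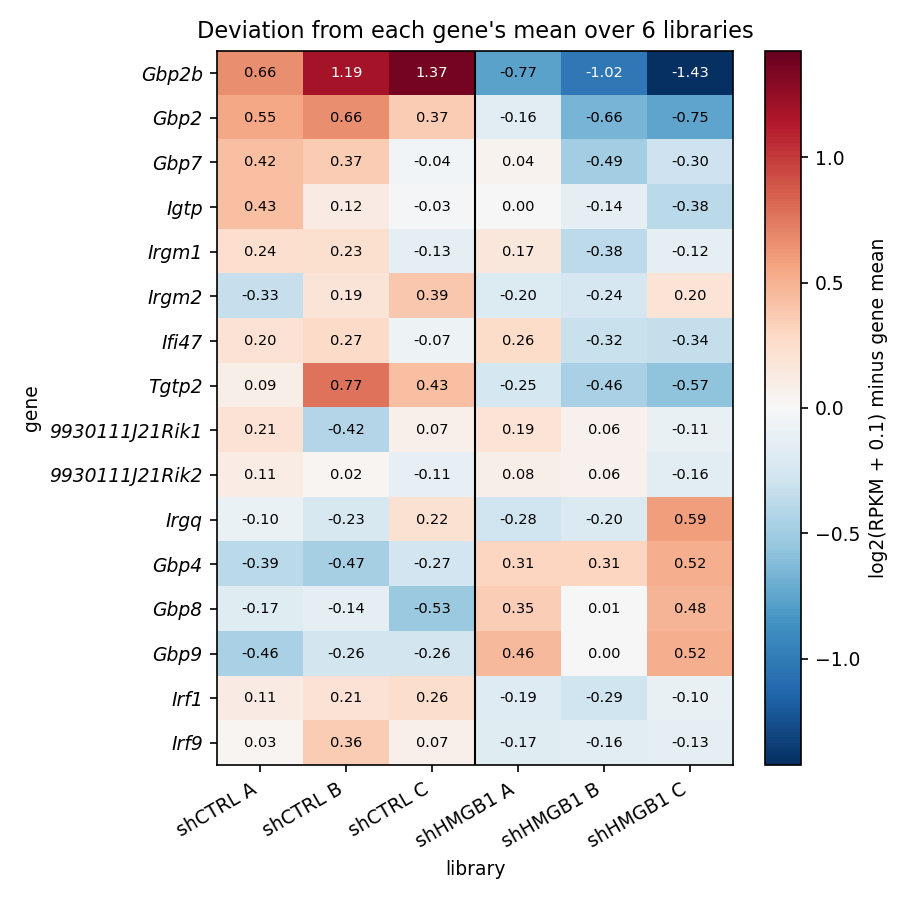
Deviation of log2(RPKM + 0.1) from each gene's mean over 6 libraries (red above, blue below; the number in each cell is the deviation), with shCTRL left and shHMGB1 right of the line. Gbp2b runs from 1.37 to -1.43, Gbp4, Gbp8 and Gbp9 run the other way, and Irgm1 and Irgm2 show no such division.

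The rest of both families was followed through a list of 24 genes, of which 9 are listed in the table and 8 were tested. In limma 0 of the 8 passed in either direction, with a median log2 fold change of 0.08 against 0.01 for all tested genes. Levels of 3 of them, Gbp4, Gbp8 and Gbp9, were higher in all shHMGB1 libraries than in all controls, as for 6.9% of all tested genes. They are the listed GBP genes of chromosome 5, where their annotated spans overlap on the minus strand between 105014150 and 105139586. Gbp6, Gbp10 and Gbp11 of chromosome 5 and Gbp5 of chromosome 3 are not listed.

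Gbp9 measured 1.40, 1.62 and 1.62 RPKM in the control libraries and 2.73, 1.97 and 2.86 RPKM in the knockdown libraries. The means were 1.55 ± 0.13 and 2.52 ± 0.48 RPKM (SD, n = 3 each), with a log2 fold change of 0.66 ± 0.22 (SE; limma adjusted p = 0.53). Gbp4 measured 0.879 ± 0.069 and 1.55 ± 0.145 RPKM (SD, n = 3 each), with a log2 fold change of 0.75 ± 0.21 (SE; limma adjusted p = 0.452). Gbp8, the scarcest at 17 to 45 reads per library, had a log2 fold change of 0.56 ± 0.26 (SE; limma adjusted p = 0.651). All 3 kept the positive sign in each of the 17 alternatives that tested them. The GBP genes of chromosome 3 and chromosome 5 thus had fold changes of opposite sign, -2.14 to -0.50 and 0.56 to 0.75, and the difference between the clusters was not tested because the first cluster was chosen for its values. Gbp9 was 0.115 to 0.163 of Gbp2b in shCTRL and 0.752 to 1.46 in shHMGB1. Between 7.78% (Gbp4) and 18.1% (Gbp8) of the 50-base windows of these chromosome 5 genes recur in other genes. The other gene is most often Gbp11 for Gbp4 and Gbp8, and Gbp8 for Gbp9. Such sharing leaves their single values less certain.

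Among the effector IRGs, Tgtp2 measured 2.86, 4.65 and 3.67 RPKM in the control libraries and 2.25, 1.92 and 1.77 RPKM in the knockdown libraries. The groups did not overlap, as for 7.07% of all tested genes toward lower values. The log2 fold change was -0.86 ± 0.23 (SE; limma adjusted p = 0.441). Since 86.6% of its 50-base windows recur elsewhere, nearly all in Tgtp1, reads of that pair cannot be told apart. Ifi47, which encodes IRGD, measured 13.3 ± 1.62 and 11.2 ± 2.80 RPKM (SD, n = 3 each) with overlapping groups and a log2 fold change of -0.27 ± 0.21 (SE; limma adjusted p = 0.752). It turned to 0.09 under equal sums, below the 0.36 of all genes. The predicted genes 9930111J21Rik1 and 9930111J21Rik2, which share most of their sequence, had log2 fold changes of 0.10 and -0.01, and Irgq had 0.07. Gm12185 was below the level tested, at 0.225 ± 0.084 and 0.377 ± 0.102 RPKM (SD, n = 3 each).

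**Figure D4:**
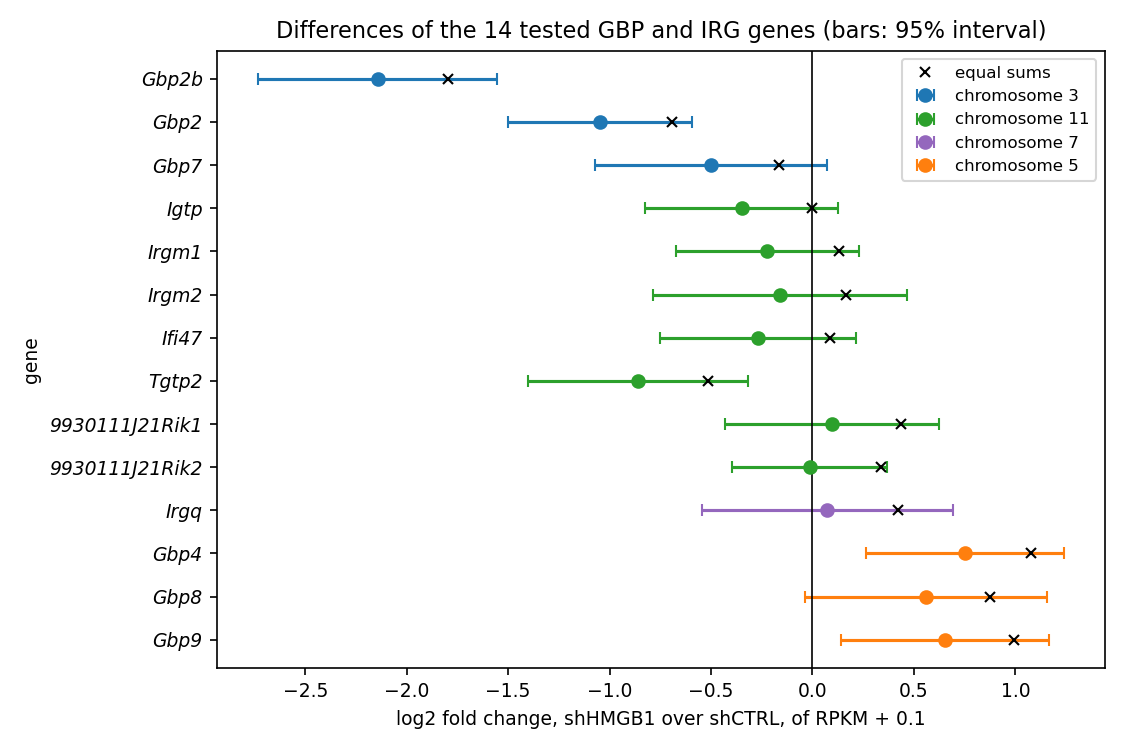
Log2 fold change of RPKM + 0.1, shHMGB1 over shCTRL, for the 14 tested genes of both families, coloured by chromosome, with bars for limma's 95% interval and crosses for libraries rescaled to equal sums. Genes of chromosome 3 lie left of 0 and those of chromosome 5 right of it, and Irgm1, Irgm2, Ifi47 and 9930111J21Rik2 cross 0 under equal sums.

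Around the GTPases, 9 lists of genes were followed, the rest of both families included, and in limma 0 of their 87 tested genes passed. Of the 87, 11 had an unadjusted p under 0.05, 8 lower and 3 higher, which is 12.6% against 7.91% of all tested genes, and voom gave 0 and 12. Whether the lists differ from other genes was not tested. Of 11 tested genes for interferon sensing 6 were positive and 5 negative, with a median log2 fold change of 0.04. The interferon-gamma receptor genes Ifngr1 and Ifngr2 had log2 fold changes of -0.11 and 0.29, the kinase genes Jak1 and Jak2 had 0.16 and 0.15, and the feedback inhibitor gene Socs1 had -0.01. Among the 11, Ifngr2 was the 1 gene whose groups did not overlap, against 7.07% lower and 6.9% higher of all tested genes. It measured 7.90 ± 0.20 RPKM in the controls and 9.68 ± 0.81 RPKM with the knockdown (SD, n = 3 each), with a limma adjusted p of 0.687. The ligand genes Ifng and Ifnb1 are not listed.

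Of 8 tested genes for STAT, IRF and related factors, 4 were positive and 4 negative, with a median of -0.06. Levels of 3 of the 8, Irf1, Irf3 and Irf9, were lower without overlap of the groups, as for 7.07% of all tested genes. Irf1, which binds ISRE letters, measured 10.1, 10.9 and 11.2 RPKM in the control libraries and 8.24, 7.66 and 8.74 RPKM in the knockdown libraries. Its groups did not overlap, the log2 fold change was -0.38 ± 0.15 (SE), and it did not pass (limma adjusted p = 0.581). The most abundant of the 8, Stat3 and Irf3, had log2 fold changes of -0.25 and -0.29, and Irf9, named after its values were seen, had -0.31.

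The lists of other interferon-induced genes differed from each other in their counts. Of 17 tested genes widely used as type I interferon markers 13 were negative and 4 positive, with a median of -0.34, where 48.3% of all tested genes were negative. Groups did not overlap for 6 of these 17, 5 lower and 1 higher, against 7.07% and 6.9% of all tested genes. Of 10 used as interferon-gamma markers 5 were negative and 5 positive, with a median of -0.02, and 2 were lower and 1 higher without overlap. The most abundant of these lists were Ifitm3 and Ifitm2, antiviral membrane protein genes with log2 fold changes of 0.07 and -0.44, and the surface protein genes Ly6a and Ly6e with -0.51 and 0.18. For genes whose products work with GBPs and IRGs, groups overlapped throughout. Autophagy conjugation genes, 14 tested, had a median of -0.02, with -0.34 for Gabarap and -0.03 for the cargo receptor gene Sqstm1. Inflammasome genes, 4 tested with 3 negative, had a median of -0.19, with -0.33 for the pore-forming Gsdmd and -0.14 for Casp1. Prenylation genes, 6 tested, which serve the lipid-modified GBPs, had a median of -0.03, with -0.01 for the farnesyltransferase subunit gene Fnta and -0.06 for Zmpste24. Constitutive relatives of the GBPs, the atlastins and dynamins, 9 tested, had a median of 0.16, with 0.11 for Atl3 and 0.16 for Dnm1l.

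**Figure D5:**
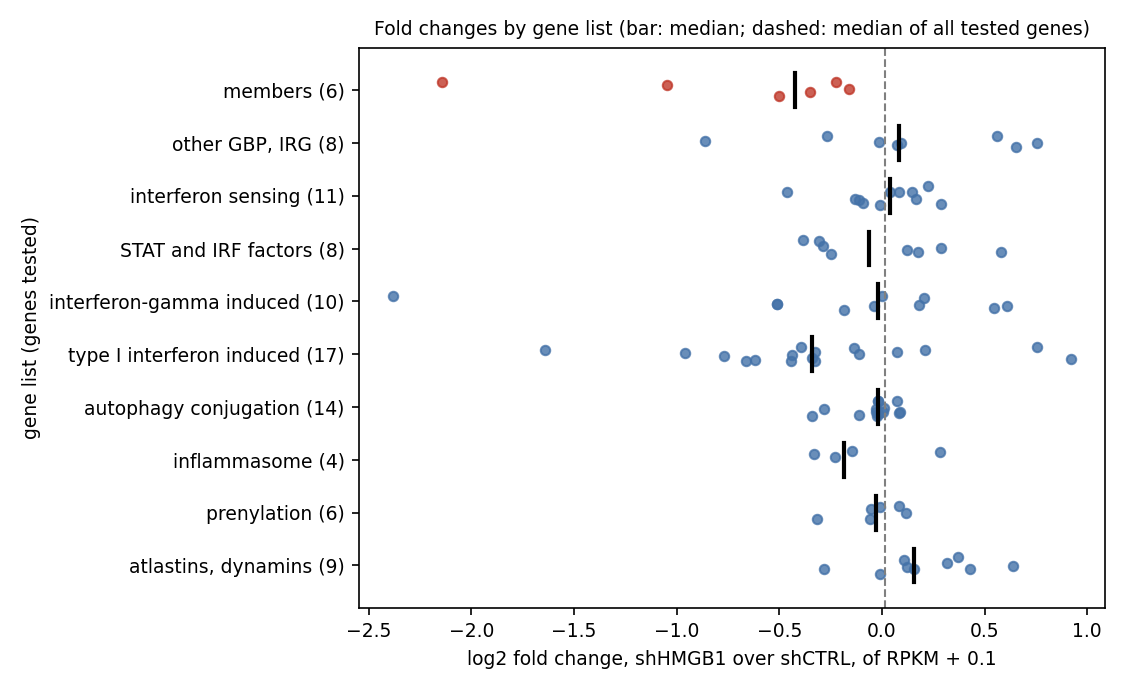
Log2 fold change of RPKM + 0.1, shHMGB1 over shCTRL, with 1 point per tested gene, grouped by list (genes tested in brackets), a black bar at each median and a dashed line at the median of all tested genes, 0.01. The 6 chosen genes reach -2.14 with a median of -0.42, and the medians of the 9 other lists plotted lie between -0.34 and 0.16. Marker lists of cell types are not plotted, and the mesothelial and fibroblast lists had medians of -0.64 and 0.43.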

How the data were processed

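The authors' deposited table gives 1 log2 RPKM value per gene and library. Trimmomatic 0.32, STAR 2.5.3a, featureCounts and edgeR are named, with mm10 and GRCm38, per the submitters' processing notes. No strandedness, gene model or gene filter was given in the sources used here. Columns were matched to samples by name, and values were raised as powers of 2. Reads were recovered from the steps of the values. Library sizes were searched with 1610 single-transcript genes, a prior of 0.25 reads was assumed, and for 12132 of 12134 genes 1 length from 40 to 60000 bases turned the 6 values into whole reads (tolerance 0.02). With sizes set wrong, 0 of 300 genes had such a length. For Gbp2b, Gbp2, Gbp7, Igtp and Irgm2 that length equals the GENCODE M21 exonic length. The length behind Irgm1 is 2305 bases, against 5810 annotated. Shorter lengths than annotated also stand behind Gbp4 (4538 against 7494), Gbp8 (2459 against 3443), Gbp9 (4441 against 5173) and Ifi47 (1879 against 2473). Smaller shortfalls stand behind Tgtp2 (2810 against 2938), 9930111J21Rik1 (4804 against 4895), 9930111J21Rik2 (6926 against 7017) and Gm12185 (5487 against 5587).

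The 11669 genes averaging 0.5 RPKM or more were tested with limma 3.58.1 in R 4.3.3 (eBayes, trend and robust) on log2(RPKM + 0.1), two-sided, with Benjamini-Hochberg adjustment at 0.05 over all of them. This scale understates differences of low genes. Exact permutation of 3 against 3 libraries has a smallest p of 0.1 and was not used. Both scripts for fitting and recovery were tested on simulated data. The genes and lists were chosen with earlier results of these data known. Named genes are the 8 chosen, Hmgb1, all listed genes of both families, fixed interferon-pathway genes, and otherwise the 2 most abundant tested genes per list. Ptprc, Lyz2 and Msln were taken from marker lists. Alternatives were other pseudocounts, filters, scalings, variance models, weights, a replicate block, voom and leaving out each library. Protein motifs were not searched, and 1 gene of the naming rule is not reported here.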

Additional observations from a re-analysis of the deposited data

How the results depend on the processing

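All 6 listed genes kept a negative log2 fold change in 17 of the 18 alternatives as far as they were tested, and under equal sums 4 of 6 did. Their median of -0.42 went to -1.05 with a minimum mean of 5 RPKM, where only 3 were tested, and to -0.084 under equal sums; leaving out 1 library gave -0.55 to -0.37. Of the 6, Gbp2b and Gbp2 passed with array quality weights (adjusted p = 0.0214 and 0.0424), and Gbp2b passed without shHMGB1 replicate A. Over its alternatives the adjusted p of Gbp2b ran from 0.0214 to 0.616 and that of Gbp2 from 0.0424 to 0.993, while their log2 fold changes ran from -2.35 to -1.80 and from -1.23 to -0.69. The count of changed genes, 3, became 0 with a minimum of 5 RPKM (limma, 513 at an unadjusted p under 0.05), 5 under equal sums or equal medians, 21 with array quality weights and 7 with the replicate block. Leaving out 1 library gave 0 to 8, with 0 without shCTRL replicate B, shCTRL replicate C or shHMGB1 replicate B and 8 without shHMGB1 replicate A. The count of pathway genes was 0, and 1 with the replicate block, Serpina3g. The letters were not taken as pairs in the main fit because no label says that a letter marks a shared batch. Deviations from the group means correlated at 0.15, -0.10 and 0.48 for same-lettered libraries and at -0.65 to 0.54 for others. Deviations from a mean of 3 libraries depend on one another, so these values cannot settle pairing. The deposited log2 values with nothing added were tried after seeing the data and kept all counts. The cause of these shifts was not tested. Read numbers limit Irgm2, Gbp8 and Gbp4 most.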

Other observations

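Genes that flank the clusters were read, within 500 kb and at most 4 on each side. Psme2b, inside the chromosome 11 span from Irgm1 to Ifi47, was read as well. This was done after the values of the GBP genes were known. Around the chromosome 3 cluster, 4 tested genes had log2 fold changes from -0.13 (Gtf2b) to 0.40 (Pdlim5), with a median of 0.13. Around the chromosome 5 cluster, 5 tested genes ran from -0.68 (Zfp951) to 0.65 (Lrrc8c), with a median of 0.20. Near Irgm1, 7 ran from -0.36 (Rack1) to 0.43 (Trim7), and near Igtp and Irgm2, 7 ran from -1.41 (Gm12248) to 0.26 (Gemin5). Gm12248 measured 1.72 ± 0.42 and 0.594 ± 0.221 RPKM (SD, n = 3 each), lower without overlap of the groups, as for 7.07% of all tested genes. Pdlim5, D930016D06Rik, Trim7 and Psme2b were higher without overlap, as for 6.9% of all tested genes. None of these 23 genes passed in limma over all genes.

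In the type I and interferon-gamma lists of induced genes together, groups did not overlap for 9 of 27 tested genes, 7 lower and 2 higher, against 7.07% and 6.9% of all tested genes, and 0 of the 27 passed in limma. They are named after their values were seen, and whether the lists differ from other genes was not tested. Lower in shHMGB1 were Zbp1, a sensor of Z-form nucleic acid, at 1.74 ± 0.63 and 0.466 ± 0.086 RPKM, Xaf1 at 2.81 ± 0.23 and 1.74 ± 0.22 RPKM, and Serpina3g at 17.5 ± 10.6 and 2.95 ± 1.30 RPKM (SD, n = 3 each). Also lower were Ifit3, Cmpk2, Ly6a and Ddx58, with log2 fold changes of -0.96, -0.77, -0.51 and -0.33. Higher were Isg15, a ubiquitin-like modifier, at 7.36 ± 2.25 and 14.1 ± 4.62 RPKM, and Cd274, which encodes PD-L1, at 1.26 ± 0.38 and 1.92 ± 0.27 RPKM (SD, n = 3 each).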
